A study of Mus musculus with 6 samples.

Results

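Endothelial and mural cell transcripts were examined in microglia sorted from mouse brain. The set held 34 genes of the vessel wall, listed by symbol, among 23462 genes that had at least 1 probe on the array. It comprised junction and surface proteins, receptors, blood-brain barrier transporters, transcription and secreted factors of endothelial cells, pericyte genes and contractile genes of smooth muscle. Each gene was represented by its probe with the highest mean signal. The study compared microglia of PGC-1αf/f mice with those of mPGC-1α mice, with 3 arrays in each group. PGC-1αf/f mice, the controls, had a PGC-1α allele that was flanked by loxP sites and linked to eGFP. In mPGC-1α mice the same allele was combined with the tamoxifen-inducible Cre of the Cx3cr1 locus. Control animals were littermates lacking the Cre, and whether they received tamoxifen was not stated for these arrays. All mice were labelled male and 10 weeks old, were of C57BL/6 background, and carried no label of an injury. Cx3cr1 is active in microglia, in macrophages of the brain borders and in blood monocytes, and the study used an interval after tamoxifen to restrict expression to microglia. The labels do not give the tamoxifen schedule of these samples. Minced brain was cleared of myelin on Percoll, and cells were pulled out by magnetic beads with an antibody to the microglial receptor P2RY12. Labels name replicates but do not state whether each was a separate mouse, so p-values describe only the spread between these samples.

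Brain capillaries are lined by endothelial cells joined by tight junctions, which restrict passage between cells, while dedicated carriers and efflux pumps govern passage through them. Pericytes are embedded in the basement membrane of capillaries, and smooth muscle cells surround arterioles and set their diameter. Microglia lie against this wall but are not known to make VE-cadherin or the smooth muscle actin, and such transcripts serve as markers of vessel cells. Not every member is restricted to the vessel wall, since claudin-5 has been described in microglia that touch vessels, and Eng, Pecam1, Ly6c1, Itm2a, Abcb1a and Vwf are made by blood cells as well.

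The targeted transcript and the arrays as a whole were checked first. The probe for Ppargc1a, which encodes PGC-1α, read 0.19, -0.44 and -1.21 in PGC-1αf/f and 0.57, 0.28 and 0.08 in mPGC-1α, in log2 units relative to the 75th percentile of the array, a difference of 0.80 ± 0.35 (SE) with an adjusted p of 0.31 by limma, or 0.44 without PGC-1αf/f replicate 3. These groups overlapped. All 16 microglial markers were well above background on all 6 arrays. PGC-1αf/f replicate 3 stood apart, correlating with the remaining arrays at 0.928 on average, against 0.962 to 0.972 for the rest. mPGC-1α replicate 3 is labelled male, yet its probes for the Y-linked genes Ddx3y, Eif2s3y, Kdm5d and Uty were not well above background, unlike those of the other 5 arrays. For the probe that stands for each named gene, differences that leaving out PGC-1αf/f replicate 3 or mPGC-1α replicate 3 changed by over 1.5 times are therefore also given without that array, and the effect of the other 4 arrays is given with the members as a whole. Every PGC-1αf/f array lay in row 1 of the slide and every mPGC-1α array in row 2, so row and group cannot be told apart.

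Most of the vascular transcripts were detected in the sort. Of the 34 genes, 21 were well above background on all 6 arrays, or 61.8%, against 52.9% of all genes with a probe. A further 5 were well above background on some arrays, and 8 on none. The 8 were Podxl, a sialomucin of the luminal surface, the angiopoietin receptor Tek and its relative Tie1, the transcription factors Erg and Sox17, and the pericyte genes Rgs5, Kcnj8 and Abcc9. The number of detected members was 22, 24 and 22 in PGC-1αf/f and 21, 24 and 25 in mPGC-1α. Detection was complete for the 4 barrier transporters and the 3 contractile genes, whereas 3 of 6 pericyte genes and 2 of 5 endothelial transcription and secreted factors were measured throughout. In these bulk samples, fewer cells of a type and less RNA per cell cannot be told apart.

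Upstream sequences of 4 members illustrate the genes that followed a common profile over the arrays, namely Flt1, Robo4 and Myl9, and Eng, which did not. A 250-base window immediately before the annotated start, from RefSeq on GRCm38.p6, was available for 23 of the 34 members, 4 of which had several annotated starts, making 29 windows. Motifs were searched on both strands. They were AGGAAG, a form of the site of ETS factors such as Erg, ACAAT, the core of SOX sites, and the CArG box, the site of serum response factor. The CArG box was searched in a strict form of 10 bases, which reads CC, then only A or T, then GG. Capitals mark the matches, which read CTTCCT or ATTGT where the match lay on the other strand. The matches shown did not overlap one another. The windows were taken for Flt1 from chr5:147726012-147726261 (minus strand), for Robo4 from chr9:37401722-37401971 (plus strand), for Myl9 from chr2:156775214-156775463 (plus strand) and for Eng from chr2:32646345-32646594 (plus strand), each printed 5′ to 3′ along the strand of the gene.
Flt1: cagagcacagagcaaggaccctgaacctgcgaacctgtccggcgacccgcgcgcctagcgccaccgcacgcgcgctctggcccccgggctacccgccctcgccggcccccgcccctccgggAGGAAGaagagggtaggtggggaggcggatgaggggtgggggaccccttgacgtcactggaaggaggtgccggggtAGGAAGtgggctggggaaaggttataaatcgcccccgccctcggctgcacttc
Robo4: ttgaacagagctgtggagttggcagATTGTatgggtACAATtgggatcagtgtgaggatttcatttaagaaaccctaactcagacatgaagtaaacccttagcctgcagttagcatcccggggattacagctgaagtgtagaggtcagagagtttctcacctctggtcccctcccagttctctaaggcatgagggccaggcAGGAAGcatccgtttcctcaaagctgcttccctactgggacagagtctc
Myl9: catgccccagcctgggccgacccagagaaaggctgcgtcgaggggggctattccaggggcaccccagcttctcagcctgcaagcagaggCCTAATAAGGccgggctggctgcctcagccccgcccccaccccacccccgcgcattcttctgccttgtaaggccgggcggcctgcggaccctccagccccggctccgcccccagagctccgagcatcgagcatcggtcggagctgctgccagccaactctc
Eng: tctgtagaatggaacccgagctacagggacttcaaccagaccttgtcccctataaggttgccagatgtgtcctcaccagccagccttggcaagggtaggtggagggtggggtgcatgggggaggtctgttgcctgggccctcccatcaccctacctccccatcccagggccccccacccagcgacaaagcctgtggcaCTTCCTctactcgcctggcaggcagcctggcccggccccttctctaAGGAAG

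AGGAAG was present in at least 1 window of 12 of the 23 members, or 52.2%, against 32.3% of 27025 genes. Counted by window, it was in 13 of the 29 member windows, or 44.8%, against 29.5% of all 32851 windows. The endothelial groups held all of these matches, since no window of the 4 pericyte and 2 smooth muscle genes contained the letters. The windows printed for Flt1 and Eng each carried 2 matches. ACAAT occurred in a window of 30.4% of members and of 30.9% of all genes, or in 24.1% of member windows and 27.7% of all windows. A CArG box in the strict form was found in the window of Myl9, starting at base 90, and in no other member. This made 4.35% of members against 1.62% of all genes, or 3.45% of member windows against 1.47% of all windows. The Acta2 window held ccctatatgg and ccttgtttgg, which have a C or G among the middle bases and were not counted. These shares describe letters within the windows and were not tested.

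To ask whether vascular transcripts differed between genotypes, the 21 members detected throughout were read from a limma fit over all 25257 tested probes with a p-value. None passed an adjusted p of 0.05, against 0.0792% of all probes. The smallest adjusted p of a member in that fit was 0.25. At an unadjusted p under 0.05, 0 members were higher in mPGC-1α microglia, where 7.53% of probes were, and 1 was lower, where 9.21% of probes were. In either direction this count was 5 without PGC-1αf/f replicate 1. It was 0 without PGC-1αf/f replicate 3 and 0 without mPGC-1α replicate 3. The difference, mPGC-1α minus PGC-1αf/f, was above 0 for 19 members and below 0 for 2, while 49.7% of all probes lay above 0. The count above 0 was 14 of 21 without PGC-1αf/f replicate 3 and 15 of 21 without mPGC-1α replicate 3. With slide column as a fixed block, where neither of these 2 arrays enters the difference, it was 8 of 20. Within column 1 it was 6 of 20. Under quantile normalization or a shift by the median of the array, 17 members were above 0, since Abcb1a and Acta2 crossed it. The median member difference was 0.30 on the log2 scale, and the median over all tested probes was -0.0026. With the shift by the median these were 0.17 and -0.14. Leaving out single arrays moved the member median to 0.56, 0.45 and 0.056 for PGC-1αf/f replicates 1, 2 and 3 and to 0.58, 0.37 and 0.24 for mPGC-1α replicates 1, 2 and 3. Without PGC-1αf/f replicate 3, 19 members had a difference that was over 1.5 times smaller or reversed, and none a larger one. Leaving out PGC-1αf/f replicate 1 or mPGC-1α replicate 1 made the difference over 1.5 times larger for 10 members each, and for none smaller by that margin. In the absence of mPGC-1α replicate 1 the differences were 1.28 for Cldn5, 1.42 for Flt1, 1.89 for Vwf, 1.24 for Myl9, 0.60 for Egfl7, 0.50 for Tagln, 0.73 for Higd1b, 0.27 for Abcb1a, 1.43 for Esam and -0.79 for Mfsd2a. In the absence of PGC-1αf/f replicate 1 they were 1.33 for Flt1, 1.16 for Slco1a4, 0.56 for Slco1c1, 0.19 for Abcb1a, 0.59 for Esam, 0.80 for Itm2a, 0.27 for Pdgfrb, 0.47 for Ocln, 0.16 for Acta2 and 0.35 for Higd1b. Fewer members moved by this margin without PGC-1αf/f replicate 2, 4 to larger values and 1 to a smaller one, and without mPGC-1α replicate 2, 1 and 4. The member median was -0.39 between the arrays in slide column 1 and 0.16 between those in column 2.

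**Figure D1:**
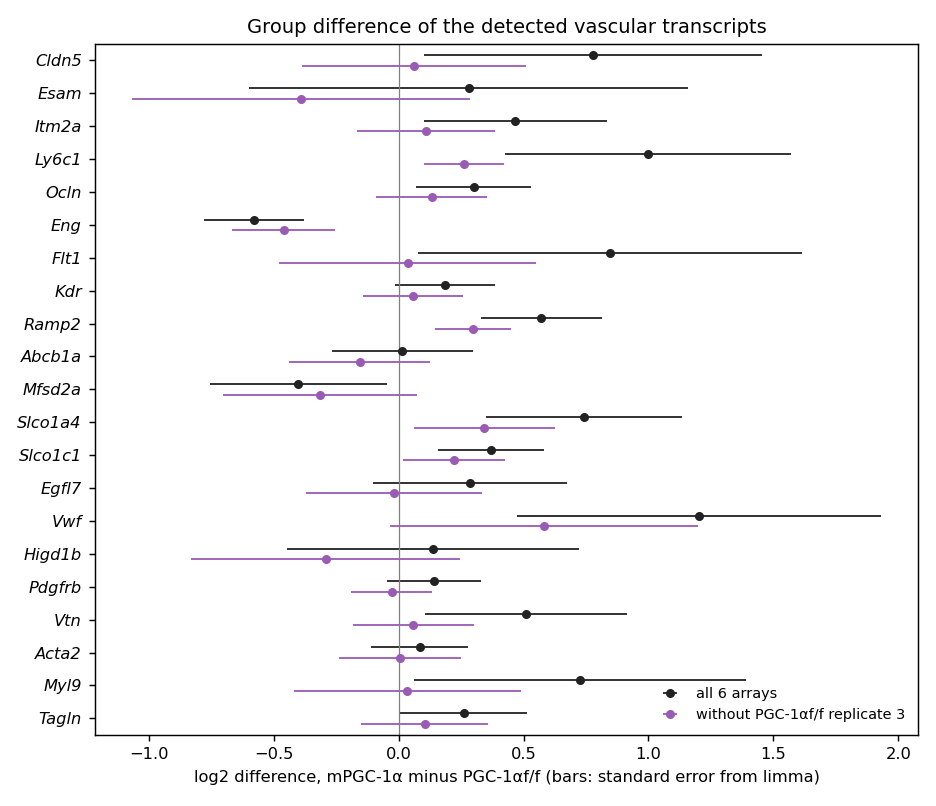
Log2 difference between mPGC-1α and PGC-1αf/f microglia for the 21 vascular transcripts well above background on all arrays, with all 6 arrays (black) and without PGC-1αf/f replicate 3 (purple). Points are limma estimates and bars are standard errors; 19 black points lie above 0, and the member median moves from 0.30 to 0.056 when that array is left out.

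Among junction and surface genes, all 5 that were tested had a difference above 0, with a median of 0.47. The median was 0.11 without PGC-1αf/f replicate 3 and 0.24 without mPGC-1α replicate 3, with 4 of the 5 above 0 in each case. Ly6c1, a GPI-anchored surface protein of brain endothelium whose close paralog Ly6c2 is made by monocytes, read 3.34, 3.51 and 1.22 in PGC-1αf/f and 3.53, 3.77 and 3.76 in mPGC-1α, in the order of replicates 1 to 3 that is kept below. The 3 mPGC-1α values lay above all 3 control values, and replicate 3 of the controls was far below the other 5 arrays. Its difference was 1.00 ± 0.57 (SE), with an adjusted p of 0.40 by limma, 0.26 without PGC-1αf/f replicate 3 and 0.96 without mPGC-1α replicate 3. Another Ly6c1 probe had values on 3 arrays, 2.98 and -0.86 in PGC-1αf/f replicates 2 and 3 and 3.07 in mPGC-1α replicate 3, the only value of its group. Its difference of 2.01 ± 1.69 (SE) was 0.087 without PGC-1αf/f replicate 3. The array design does not show whether these probes separate Ly6c1 from Ly6c2. Itm2a, a membrane protein of endothelium and T cells, read -0.23, -0.83 and -1.61 in PGC-1αf/f and -0.65, -0.66 and 0.03 in mPGC-1α microglia, so that the groups overlapped. That difference was 0.47 ± 0.37 (SE; adjusted p = 0.53 by limma), 0.11 without PGC-1αf/f replicate 3, 0.24 without mPGC-1α replicate 3 and -0.41 within slide column 1.

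Cldn5, the main claudin of the blood-brain barrier, was singled out after its values were seen. It read -0.69, -0.75 and -2.87 in PGC-1αf/f and -1.66, -0.32 and 0.0076 in mPGC-1α. The lowest values came from PGC-1αf/f replicate 3 and mPGC-1α replicate 1, 1 array of each group. The difference of 0.78 ± 0.68 (SE) had an adjusted p of 0.57 by limma and was 0.060 without PGC-1αf/f replicate 3 and 0.44 without mPGC-1α replicate 3. Within slide column 1 it turned to -0.97. Ocln, a further tight junction protein, and Esam, an endothelial adhesion molecule, had differences of 0.30 and 0.28, the latter over 5 arrays because a spot was flagged as an outlier on mPGC-1α replicate 2. Without PGC-1αf/f replicate 3 these were 0.13 and -0.39, and Esam was -0.87 without mPGC-1α replicate 3.

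Several members were well above background in a single group. Pecam1, an adhesion molecule of endothelium, platelets and leukocytes, was well above background on 2 PGC-1αf/f arrays and on no mPGC-1α array. Its values were -3.16, -3.30 and -3.66 against -4.36, -4.05 and -4.15, so that all 3 PGC-1αf/f values were the higher. No fold is given, since PGC-1αf/f replicate 1, the array with the highest value, did not measure it well above background. Cdh5, which encodes VE-cadherin of adherens junctions, was well above background on mPGC-1α replicate 3 alone, and read -4.97, -3.65 and -4.96 in the controls and -4.84, -4.58 and -3.25 in mPGC-1α. Sox18, a transcription factor of vessel development, was well above background on mPGC-1α replicates 2 and 3, with -4.56, -4.38 and -5.19 in the controls and -5.72, -3.77 and -3.40 in mPGC-1α. The groups overlapped for Cdh5 and Sox18, and no fold could be bounded. Emcn, the sialomucin endomucin, was well above background on 3 arrays, and ranged from -5.04 to -1.82.

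Of the 4 endothelial receptors tested, Eng and Ramp2 had groups that did not overlap, in opposite directions. Eng, the endoglin co-receptor for TGF-β family ligands, which macrophages make as well and whose window ended in AGGAAG, read 0.19, 0.72 and 0.81 in PGC-1αf/f and -0.19, 0.14 and 0.030 in mPGC-1α. All 3 control values were the higher. Its difference was -0.58 ± 0.20 (SE), with an unadjusted p of 0.024 and an adjusted p of 0.25 by limma, and this was the member with an unadjusted p under 0.05. The value was -0.46 without PGC-1αf/f replicate 3 and -0.60 without mPGC-1α replicate 3, -0.38 within slide column 1 and -0.57 within column 2. Ramp2, the partner that turns the calcitonin receptor-like receptor into an adrenomedullin receptor, read -1.51, -1.47 and -2.30 in PGC-1αf/f and -1.07, -1.31 and -1.19 in mPGC-1α. All 3 mPGC-1α values were the higher. The difference was 0.57 ± 0.24 (SE), with an unadjusted p of 0.051 and an adjusted p of 0.30 by limma, and was 0.30 without PGC-1αf/f replicate 3. Another Ramp2 probe was well above background on all 3 mPGC-1α arrays but not on PGC-1αf/f replicate 3. The filter therefore admitted it through the group where it was higher. It gave 0.82, with overlapping groups, or 0.29 without PGC-1αf/f replicate 3. Groups did not overlap for 3 of the 19 members with a value on every array, Ly6c1, Ramp2 and Eng, where 25.2% of all complete probes had groups that did not overlap.

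Flt1, the VEGF receptor that binds and holds back its ligand, and whose window held AGGAAG at 2 places, read -0.62, -0.92 and -3.20 in PGC-1αf/f and -1.89, -0.34 and 0.025 in mPGC-1α. As for Cldn5, the lowest arrays were PGC-1αf/f replicate 3 and mPGC-1α replicate 1. Its difference of 0.85 ± 0.77 (SE; adjusted p = 0.59 by limma) became 0.036 without PGC-1αf/f replicate 3 and 0.47 without mPGC-1α replicate 3. Within slide column 1 it turned to -1.27. Kdr, the main signalling receptor for VEGF-A, varied less, between -1.60 and -0.84, with a difference of 0.19 ± 0.20 (SE) that was 0.056 without PGC-1αf/f replicate 3 and 0.28 without mPGC-1α replicate 3. Robo4, an endothelial receptor that stabilises vessels, was well above background on 4 arrays and ranged from -4.48 to -1.48.

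The 4 blood-brain barrier transporters had differences from -0.40 to 0.74, with a median of 0.19, or 0.033 without PGC-1αf/f replicate 3. Slco1c1, a carrier of thyroid hormone, read 1.03, 0.55 and 0.35 in PGC-1αf/f and 1.21, 1.01 and 0.81 in mPGC-1α microglia. Slco1a4, an organic anion carrier, read -0.34, -1.21 and -1.97 in PGC-1αf/f and -0.56, -0.61 and -0.13 in mPGC-1α. Both had overlapping groups, and the limma differences were 0.37 ± 0.21 (SE; adjusted p = 0.40) and 0.74 ± 0.39 (SE; adjusted p = 0.37). Without PGC-1αf/f replicate 3 they were 0.22 and 0.34. Another Slco1c1 probe, with a value on 2 arrays of each group, gave 0.69 ± 0.33 (SE), or 0.26 without that array. Abcb1a, the P-glycoprotein efflux pump, read -2.11, -2.47 and -2.80 in the controls and -2.95, -2.38 and -2.01 in mPGC-1α, a difference of 0.015 ± 0.28 (SE), which was -0.16 without PGC-1αf/f replicate 3 and -0.21 without mPGC-1α replicate 3. Whether its probe separates Abcb1a from its paralog Abcb1b was not checked, and Slco1a4 belongs to a family of similar genes. Mfsd2a, the lysophospholipid transporter that limits transcytosis across brain endothelium, ran the other way. It read -1.22, -1.10 and -0.90 in PGC-1αf/f and -0.70, -1.53 and -2.19 in mPGC-1α, lowest on mPGC-1α replicate 3, where 12 of the 19 complete members were highest. The Mfsd2a difference was -0.40 ± 0.35 (SE; adjusted p = 0.58 by limma). It was -0.042 without mPGC-1α replicate 3, and 0.52 within slide column 1.

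Vwf, the von Willebrand factor stored by endothelium and platelets, had the highest difference of the 21 members. It read -0.92, -0.21 and -2.42 in PGC-1αf/f and -1.36, 0.81 and 0.60 in mPGC-1α, so that 1 mPGC-1α array lay within the control range. The difference was 1.20 ± 0.73 (SE; adjusted p = 0.43 by limma), 0.58 without PGC-1αf/f replicate 3, 0.91 without mPGC-1α replicate 3 and -0.44 within slide column 1. Of 8 platelet markers, 5 were well above background on all arrays and the platelet genes Ppbp, Itga2b and Gp1ba on none, with a summed linear level of 7.93 to 9.34 in PGC-1αf/f and 5.62 to 8.92 in mPGC-1α microglia. Whether platelet RNA had a part in the Vwf values was not tested. Egfl7, a secreted factor of the endothelial matrix and host of a vascular microRNA, read -1.79, -1.73 and -2.67 against -2.40, -1.86 and -1.07, a difference of 0.29 ± 0.39 (SE) with overlapping groups. It was -0.019 without PGC-1αf/f replicate 3 and -0.067 without mPGC-1α replicate 3.

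Of the pericyte genes, Vtn, which encodes vitronectin, read 1.06, 0.98 and -0.34 in PGC-1αf/f and 0.66, 1.10 and 1.47 in mPGC-1α. Higd1b, a mitochondrial protein enriched in pericytes, read -1.90, -1.90 and -3.18 against -3.39, -1.89 and -1.29. Both overlapped between groups, with limma differences of 0.51 ± 0.40 (SE; adjusted p = 0.54) and 0.14 ± 0.58 (SE; adjusted p = 0.92). Without PGC-1αf/f replicate 3 these were 0.058 and -0.29, and without mPGC-1α replicate 3 they were 0.31 and -0.31. Pdgfrb, the receptor through which endothelial PDGF-B recruits pericytes, ranged from -2.71 to -2.09, with a difference of 0.14 ± 0.19 (SE). That value, which was also the pericyte median, turned to -0.028 without PGC-1αf/f replicate 3 and was 0.071 without mPGC-1α replicate 3.

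Contractile genes were detected on every array by the probe that stands for each. Tagln, an actin-binding protein of smooth muscle, read -0.51, -0.33 and -0.88 in PGC-1αf/f and -0.80, -0.17 and 0.029 in mPGC-1α, a difference of 0.26 ± 0.25 (SE; adjusted p = 0.62 by limma), 0.10 without PGC-1αf/f replicate 3 and 0.088 without mPGC-1α replicate 3. For Acta2, the α-actin of smooth muscle, 2 spots were flagged as outliers, and the 4 values left were 3.00 and 2.84 in PGC-1αf/f replicates 1 and 3 and 3.14 and 2.87 in mPGC-1α replicates 2 and 3. Another Acta2 probe read -1.69, -1.34 and -4.29 in PGC-1αf/f and -2.31, -0.74 and -0.86 in mPGC-1α. It was well above background on all 3 mPGC-1α arrays but not on PGC-1αf/f replicate 3. The filter therefore admitted it through the group where it was higher. Its difference was 1.14, where the first probe gave 0.084. That value includes a signal at background, and was 0.22 without PGC-1αf/f replicate 3. The probes of this gene disagreed in level and in how far they varied over the arrays. Without PGC-1αf/f replicate 3 the first probe gave 0.0050, and without mPGC-1α replicate 3 it gave 0.22. A further probe of Acta2 was well above background on no array. Myl9, the regulatory light chain of smooth muscle myosin, was the member with a CArG box of the strict form in its window. It had a difference of 0.73 ± 0.67 (SE), which became 0.035 without PGC-1αf/f replicate 3 and 0.45 without mPGC-1α replicate 3.

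**Figure D2:**
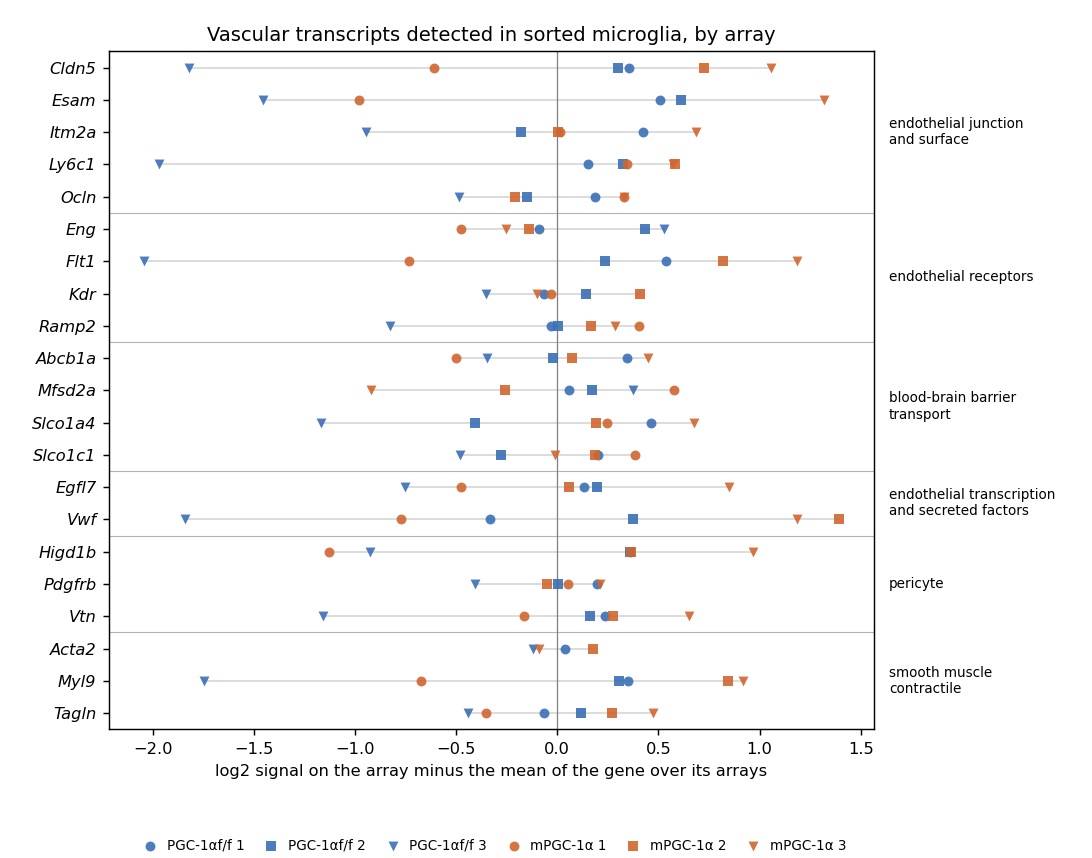
Log2 signal of each of the 21 detected vascular transcripts on each array, relative to the mean of that gene over its arrays, in role groups. Blue symbols are PGC-1αf/f and orange symbols mPGC-1α arrays, with 1 shape per replicate; the blue triangle of PGC-1αf/f replicate 3 is lowest for 15 of the 19 genes with a value on every array, and Eng and Mfsd2a depart from the common order.

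Many members shared a profile over the arrays that cut across genotype. It was noticed after the values were seen and is given as a description. Of the 19 members with a value on every array, 15 were lowest on PGC-1αf/f replicate 3, which was the lowest array for 29.8% of all complete probes, and 3 on mPGC-1α replicate 1, the lowest for 18.5%. The highest array was mPGC-1α replicate 3 for 12 members and for 22.3% of probes. For 9 members, or 47.4%, PGC-1αf/f replicate 3 and mPGC-1α replicate 1 were together the 2 lowest arrays, as they were for 4.35% of probes. These 9 genes were Abcb1a, Cldn5, Egfl7, Flt1, Higd1b, Myl9, Tagln, Vtn and Vwf, which span capillary endothelium, pericytes and smooth muscle. Robo4, Emcn and Sox18, which were not tested, had the same 2 lowest arrays.

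**Figure D3:**
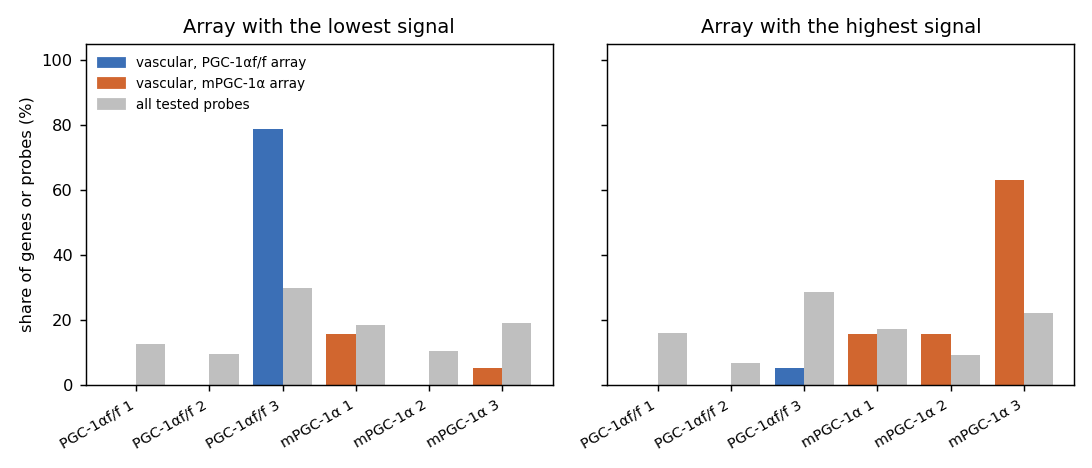
Share of the 19 complete vascular transcripts (coloured bars) and of the 22997 complete tested probes (grey bars) that had their lowest (left) or highest (right) signal on each array, in percent. PGC-1αf/f replicate 3 is the lowest array for 15 of the 19 transcripts and for 29.8% of probes, and mPGC-1α replicate 3 the highest for 12 transcripts and for 22.3% of probes.

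The range over the 6 arrays had a median of 1.60 log2 units among the 19 members and of 0.67 among all complete probes. It exceeded 1 for 13 members, or 68.4%, and for 25.9% of probes. Flt1 had a range of 3.22, Vwf of 3.23, Cldn5 of 2.88 and Myl9 of 2.66, whereas Kdr, Pdgfrb and Ocln stayed at or under 0.82. Over the 19 members, the median level was -0.70, -0.92 and -2.30 in PGC-1αf/f and -1.28, -0.61 and -0.13 in mPGC-1α. The control array with the low median was the one that stood apart in correlation, and the remaining 2 control arrays lay within the mPGC-1α range.

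Markers of other cell types also varied between these arrays. Blood leukocyte markers, of which 17 of the 21 with a probe were well above background on all arrays, had medians of 1.68, 1.88 and -1.30 in PGC-1αf/f and 2.03, 2.35 and 2.25 in mPGC-1α. Their summed linear level, in units of the 75th percentile of the array, ranged from 18.9 to 148.3 in PGC-1αf/f and from 148.0 to 179.7 in mPGC-1α. Erythroid markers had medians of -0.067, -0.29 and -4.03 against -0.77, -0.39 and 0.53, with 4 of the 7 that had a probe well above background on all arrays and sums of 11.7 to 34.6 and 20.3 to 37.6. Both lists, like the vascular set, were lowest on PGC-1αf/f replicate 3, and the erythroid list was next lowest on mPGC-1α replicate 1. The summed level of 32 vascular members was 9.95 to 24.0 in PGC-1αf/f and 22.3 to 30.3 in mPGC-1α. The part of blood or of the separation of cells in the vascular differences was not tested.

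Astrocyte medians ran from -0.082 to 1.42, with 11 of 12 markers detected throughout, and were lowest on mPGC-1α replicate 3, where the vascular median was highest. Oligodendrocyte markers, 9 of 15 detected throughout, ran from -0.25 to 0.16 in PGC-1αf/f and from -0.83 to -0.47 in mPGC-1α. Neuronal medians lay between -1.07 and 0.0020, with 9 of 12 markers detected throughout and Nefm and Slc17a7 on no array. Border macrophage markers, all 10 of them detected throughout, were highest on mPGC-1α replicate 3, at 1.39. Microglial medians stayed between 4.19 and 4.53.

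**Figure D4:**
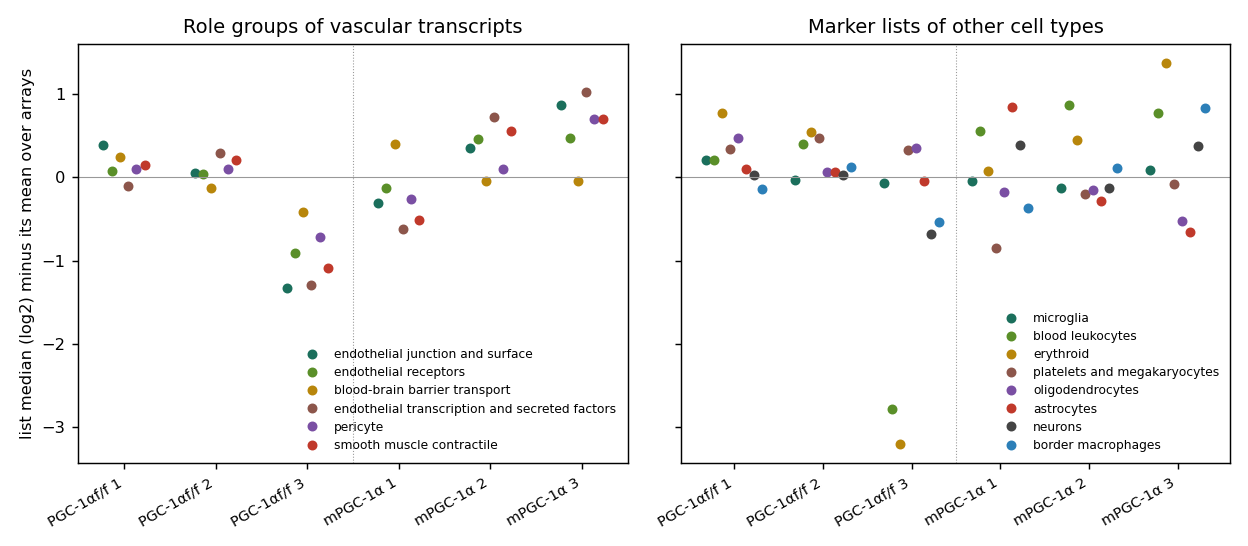
Median log2 signal of each list on each array, minus the mean of that median over the 6 arrays, for the role groups of vascular transcripts (left) and for markers of other cell types (right). All vascular groups are lowest on PGC-1αf/f replicate 3, where the medians of leukocyte and erythroid markers read -1.30 and -4.03 before centring, and the microglial list varies least.

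Genes of the pathways that build and maintain vessels were read from the same limma fit, and none of them passed an adjusted p of 0.05. Their counts stand beside shares over all tested probes of 49.7% above 0, and, at an unadjusted p under 0.05, of 7.53% higher and 9.21% lower. Over all related lists, 39 of 61 tested genes were above 0. With the shift by the median, where the median over all tested probes was -0.14, 31 of 61 were above 0, so counts of small differences depend on the scaling. Of 14 genes of the VEGF and angiopoietin pathway, 8 were tested and all 8 had a difference above 0, 2 of them at an unadjusted p under 0.05, with a median of 0.057. Vegfc, 1 of these 2, was well above background on 1 PGC-1αf/f array and all 3 mPGC-1α arrays. The filter therefore admitted it through the group where it was higher, which favours a difference above 0. Notch3, in the Notch and mural lists, likewise was well above background on 2 and 3 arrays. Of the 8, 7 were above 0 without PGC-1αf/f replicate 3, with a median of 0.035, and without mPGC-1α replicate 3, 4 of the 8 with a median of -0.012. Nos3, the endothelial nitric oxide synthase, had the highest among those detected throughout, 1.02 ± 0.41 (SE; adjusted p = 0.29), which was 0.51 without PGC-1αf/f replicate 3. The co-receptor Nrp2 had the lowest, 0.0051, which was -0.11 without PGC-1αf/f replicate 3 and -0.030 without mPGC-1α replicate 3. The Notch and PDGF pathway had 6 of 8 tested genes above 0, or 5 without either array, 1 of them at an unadjusted p under 0.05, with a median of 0.098, from the transcriptional repressor Hes1 at -0.30, or -0.19 without PGC-1αf/f replicate 3, to the Notch ligand Jag1 at 0.43 ± 0.13 (SE; adjusted p = 0.21). In the Wnt and barrier pathway, 7 of 13 tested genes were above 0, or 6 without mPGC-1α replicate 3, and at an unadjusted p under 0.05 there was 1 on each side. Cgnl1, a junction protein also known as paracingulin, had the highest difference, 1.35 ± 0.40 (SE; adjusted p = 0.20), or 0.86 without PGC-1αf/f replicate 3. The junction scaffold Tjp1 had the lowest, -0.58 ± 0.24 (SE; adjusted p = 0.31), or -0.37 without mPGC-1α replicate 3.

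Genes around endoglin lay on either side of 0. Of 11 tested genes of the ALK1 and endoglin pathway, 5 were above 0 and 6 below, 2 and 1 of them at an unadjusted p under 0.05, with a median of -0.051, or -0.085 without PGC-1αf/f replicate 3 and -0.12 without mPGC-1α replicate 3. Id3, a target of this pathway, had a limma difference of 0.96 ± 0.31 (SE; adjusted p = 0.23), or 0.63 without PGC-1αf/f replicate 3. The inhibitor Smad7 had -0.44 ± 0.21 (SE; adjusted p = 0.34), or -0.21 without that array. Among 11 further endothelial genes that were tested, 3 were above and 2 below 0 at an unadjusted p under 0.05, read against the same 7.53% and 9.21% of all probes. The shear-responsive factor Klf4 had the highest difference, 1.32 ± 0.23 (SE; adjusted p = 0.097), and the sphingosine-1-phosphate receptor S1pr1 the lowest, -1.07 ± 0.25 (SE; adjusted p = 0.17), or -0.69 without mPGC-1α replicate 3. Klf4 and S1pr1 are also made by microglia. Of 15 further mural genes, 3 were tested, 0 of them at an unadjusted p under 0.05, while 10 were well above background on no array, among them Myh11, Cnn1 and Des. Zic1 had the highest difference there, 0.73, and the pericyte proteoglycan Cspg4 had 0.50. Without PGC-1αf/f replicate 3 they were 0.33 and 0.21. Of 8 tested genes of the basement membrane and of vessel-associated fibroblasts, 6 were above 0, 3 of them at an unadjusted p under 0.05, with a median of 0.69 and of 0.31 without PGC-1αf/f replicate 3. The proteoglycan Dcn had 1.39 ± 0.39 (SE; adjusted p = 0.19) and the laminin chain Lamc1 -0.080. Lamc1 was -0.14 without PGC-1αf/f replicate 3 and 0.044 without mPGC-1α replicate 3.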

How the data were processed

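RNA of P2RY12-sorted microglia was amplified, labelled with Cy5 and hybridized to 1-colour Agilent mouse expression arrays, 1 array per sample. Per the file headers, the authors read the arrays with Feature Extraction 11.5.1.1, and the deposited values are background-subtracted, detrended intensity per spot, with 0 or 1 flags for spots well above background, saturated or outlying. The deposited table of the whole series holds the same intensity, rounded, with no normalization between arrays, although the methods name GeneSpring. No spot was saturated, and the 6 arrays limit the precision.

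Control and outlier spots were left out of 59305 spots, log2 intensity was shifted by the 75th percentile of the array (1011.8 to 2138.15), and spots of a probe were averaged. Accessions named 1 gene for 33767 of 56605 probes and none for 22838. A probe was kept if it was well above background throughout 1 group or both, taking at least 0.5 of its spots, and was then tested with limma 3.58.1 in R 4.3.3 (lmFit, eBayes, two-sided, Benjamini-Hochberg over all 25257 tested probes). The fit was tested on simulated data. A missing spot was dropped, not imputed. Members and lists were chosen with earlier results of these data known. Values on every array were given for the 3 highest and 3 lowest differences, the brightest 2 members of each role group, members whose groups did not overlap, and members detected in 1 group alone. From the related lists, the highest and the lowest difference among genes well above background on all arrays were named. Y-linked genes, Xist and Ppargc1a were added after the data were seen. Alternatives were another normalization, background correction, filter, probe rule, variance model, array weights, slide column, replicate block and leaving out each array.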

Additional observations from a re-analysis of the deposited data

How the results depend on the processing

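No member passed the threshold under any of 18 alternatives, and genes of the related lists did so with array weights alone, where there were 2. Calls over all probes were few and moved widely, from 20 to 11 with quantile normalization, with the median shift or with normexp, to 9 with no filter on dim probes, 4 with detection on all 6 arrays, 1 with slide column as a fixed block, 138 with it as a random block, 754 with array weights, 456 on the deposited table as given, and 0 to 24 on leaving out 1 array. The replicate numbers did not pair the samples, since deviations of same-numbered arrays correlated at 0.14, 0.13 and 0.019, and with the replicate block 0 probes passed. Of the 19 complete members, groups did not overlap for 1, or 5.26%, with normexp, where 23.6% of all complete probes had such groups. With 1 array left out the number was 3 to 11. It was 6, or 31.6%, without PGC-1αf/f replicate 1, against 44.2% of probes, and 11, or 57.9%, without mPGC-1α replicate 1, against 34% of probes.

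The member median of 0.30 ranged from 0.056 to 0.58 with 1 array left out, and was -0.11 with slide column as a fixed block and -0.39 within column 1. For the same 2 settings the medians were -0.12 and -0.41 for junction and surface genes and also for the members made by blood cells, -0.095 and -0.17 for receptors, -0.041 and -0.52 for transcription and secreted factors, -0.14 and -0.40 for pericyte genes, and -0.16 and -0.66 for contractile genes. The barrier transporters gave -0.019 within column 1. The pericyte median ran from -0.028 to 0.72 with 1 array left out. Columns 1 and 2 hold 1 array of each group. mPGC-1α replicate 3 lies alone in column 3, and PGC-1αf/f replicate 3 alone in column 4. Neither array therefore enters the group difference with column as a fixed block. That setting cannot tell an adjustment for column from leaving out both arrays. The cause of the differences between columns was not tested.

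Single members turned their direction mostly under these settings. With column as a fixed block and within column 1, respectively, the difference was -0.27 and -0.97 for Cldn5, -0.34 and -1.27 for Flt1, -0.38 and -0.85 for Abcb1a, -1.49 and -1.49 for Esam, -0.12 and -0.41 for Itm2a, -0.098 and -0.14 for Pdgfrb, -0.14 and -0.40 for Vtn, -0.37 and -0.61 for Egfl7, 0.044 and 0.52 for Mfsd2a, -0.067 and -0.29 for Tagln, -0.24 and -1.02 for Myl9, and -0.74 and -1.49 for Higd1b. Within column 1 alone, Slco1a4 gave -0.22 and Vwf -0.44, and within column 2, Pdgfrb gave -0.053, Egfl7 -0.14 and Ocln -0.062. With column as a random block, Abcb1a gave -0.089, Esam -0.034 and Higd1b -0.095. With array weights, Abcb1a gave -0.033, Esam -0.59, Egfl7 -0.060 and Higd1b -0.16. Abcb1a was -0.042 with quantile normalization, -0.12 with the median shift and -0.019 on the deposited table, and Acta2 was -0.026 with quantile normalization, -0.065 with the median shift and -0.16 with normexp. With 1 array left out, differences ranged from -0.21 to 0.27 for Abcb1a, -0.87 to 1.43 for Esam, -0.028 to 0.27 for Pdgfrb, -0.067 to 0.60 for Egfl7, -0.048 to 0.22 for Acta2 and -0.31 to 0.73 for Higd1b. Eng, Ly6c1, Ramp2, Kdr and Slco1c1 kept their direction under all alternatives run for them.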

Other observations

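Among related genes, chosen after their values were seen, Ptprb, the endothelial receptor phosphatase that opposes Tek, read -2.12, -2.09 and -4.44 in PGC-1αf/f and -3.45, -1.40 and -1.36 in mPGC-1α. Mmrn2, an endothelial matrix protein, read -3.73, -3.60 and -5.89 against -5.51, -3.46 and -3.64. Both had PGC-1αf/f replicate 3 and mPGC-1α replicate 1 as their lowest arrays, as 9 of the 19 complete members did, and neither was tested, since neither was well above background on all arrays of a group. Xist, the transcript that silences an X chromosome in female cells, read -5.44, -2.78 and -6.47 in PGC-1αf/f and -5.71, -2.40 and -1.63 in mPGC-1α. It was well above background on PGC-1αf/f replicate 2 and on mPGC-1α replicates 2 and 3, and highest on mPGC-1α replicate 3. On mPGC-1α replicate 3, Ddx3y, Kdm5d and Uty, which lie on the Y chromosome, read -5.92, -5.99 and -5.87. Both replicate 2 arrays had these Y-linked probes well above background, so they carried signal of either kind.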
